A study of Mus musculus with 4 samples.

Results

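Acute phase proteins are secreted proteins whose blood level changes during inflammation, and 7 of their genes, *Saa1*, *Saa2*, *Saa3*, *Lcn2*, *Serpina3n*, *Hp* and *Orm1*, were followed by symbol among the 32285 genes counted in 4 single-cell RNA-seq libraries. The cells were primary cultures from chow-fed male C57BL/6J mice, whose age for these cultures was not given in the sources used here. De-differentiated fat (DFAT) cells were grown by ceiling culture, in which floating adipocytes attach to the upper wall of an inverted flask and lose their lipid, from inguinal white adipose tissue (iWAT_DFAT) or epididymal white adipose tissue (eWAT_DFAT). The cultured stromal vascular fraction, the non-adipocyte cells of the same depots, served as adipose stem and progenitor cells (iWAT_ASPC and eWAT_ASPC). No drug or diet differed between the groups, and the culture was sorted for live cells before loading. The culture itself differed: DFAT cells began in filled, inverted flasks without air and ASPCs in dishes. Cell origin and culture method therefore cannot be told apart in any ratio of DFAT cells over ASPCs. Each condition was 1 library, so differences between cultures of 1 condition were not measured, and no test across samples was run. The intervals below are 95% intervals that cover counting error only.

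The liver makes most acute phase protein after interleukin-1 and interleukin-6 reach it, through the transcription factors NF-κB, C/EBP and STAT3. Adipose tissue is a further source, and *Saa3*, *Lcn2* and *Hp* are known as adipose transcripts in the mouse. The proteins act outside the cell: serum amyloid A proteins bind lipoproteins, lipocalin 2 binds bacterial siderophores, haptoglobin binds free haemoglobin, and the *Serpina3n* product inhibits serine proteases.

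Counts are of unique molecular identifiers (UMIs), tags that mark single captured RNA molecules, and a level is a gene's share of all UMIs of the kept cells of a library, in the usual depth-scaled unit CPM. Barcodes with 5000 to 75000 UMIs, 200 to 7500 genes and under 10% mitochondrial UMIs were kept, which left 7629 iWAT_DFAT, 6464 eWAT_DFAT, 7424 iWAT_ASPC and 6745 eWAT_ASPC cells at medians of 22111 to 27617 UMIs. Libraries held 211396227 to 242282812 UMIs in all, and pairs of libraries shared 13 to 20 cell barcodes. *Pdgfra*, a progenitor marker, stood at 82.5 to 245.7 CPM in the 4 libraries. Hepatocyte markers summed to at most 0.395 CPM, and the 6 macrophage markers to 17.6 to 20.3 CPM in 3 libraries and 56.5 CPM in eWAT_ASPC. There *Lyz2* made 40.6 CPM, *Csf1r* was at 11.1 to 18.4 CPM in the 4 libraries, and *Ptprc* was at most 0.486 CPM. The 5 neutrophil markers summed to 65.3 CPM in iWAT_DFAT and 31.5 CPM in eWAT_DFAT against 1.15 and 1.53 CPM in iWAT_ASPC and eWAT_ASPC. *Camp* made 63.7 and 28.2 CPM of the DFAT sums, *S100a8* was at 1.36 and 3.02 CPM against 0.0602 and 0.0506 CPM, and *S100a9* and *Ly6g* were at most 0.0871 CPM. The part of such cells in the results was not tested. The 6 adipocyte markers summed to 19.8 and 75.2 CPM in iWAT_DFAT and eWAT_DFAT against 0.436 and 1.002 CPM in iWAT_ASPC and eWAT_ASPC, and *Lep* had no UMI in any of the 4. The 5 mesothelial markers summed to 84.8 CPM in eWAT_ASPC, 71.3 CPM in iWAT_ASPC, 10.7 CPM in eWAT_DFAT and 5.81 CPM in iWAT_DFAT. *Krt19* alone made 70.7 CPM of the iWAT_ASPC sum.

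The genes lie on 5 chromosomes of the GRCm38 build in the GENCODE M21 annotation. *Saa3*, *Saa1* and *Saa2* sit with *Saa4* in a cluster of 42316 bases on chromosome 7. There *Saa3* spans 46711998 to 46715700 and *Saa1* spans 46740497 to 46742980 on the minus strand, and *Saa2* spans 46751790 to 46754313 on the plus strand. *Lcn2* lies on chromosome 2 from 32384633 to 32388252 (minus strand), *Serpina3n* on chromosome 12 from 104406729 to 104414329 (plus), *Hp* on chromosome 8 from 109575128 to 109579172 (minus) and *Orm1* on chromosome 4 from 63344560 to 63348163 (plus). *Saa1* and *Saa2* are near copies: over the last 300 bases of their longest coding transcripts, the part that a 3′ library reads, they were 94.3% identical with a longest identical run of 73 bases. *Orm1* and its neighbour *Orm2* were 97.7% identical over the same stretch. How UMIs were divided within each of these pairs is therefore uncertain. *Saa3* was 60.5% identical to *Saa1* with no identical run above 5 bases.

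Promoters are shown because several of the genes moved together and because the copies differ little upstream. The sequences run 5′ to 3′ on the strand of the gene, from 250 bases before to 50 bases after the RefSeq start in GRCm38.p6, and 5 of the 7 genes had an entry. They were searched on both strands for 4 motifs: NF-κB (GGG and TTTCC with any 2 bases between them), C/EBP (TTGCNNAA), STAT3 (TTCNNNGAA) and the TATA box (TATAAA). Capitals mark every match, and no matches overlapped.
Saa3: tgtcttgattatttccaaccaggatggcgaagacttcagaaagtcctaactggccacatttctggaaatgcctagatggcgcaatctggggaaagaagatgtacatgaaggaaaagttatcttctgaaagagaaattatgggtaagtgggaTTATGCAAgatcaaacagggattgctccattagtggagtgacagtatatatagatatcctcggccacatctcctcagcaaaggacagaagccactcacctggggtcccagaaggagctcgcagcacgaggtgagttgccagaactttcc
Saa1: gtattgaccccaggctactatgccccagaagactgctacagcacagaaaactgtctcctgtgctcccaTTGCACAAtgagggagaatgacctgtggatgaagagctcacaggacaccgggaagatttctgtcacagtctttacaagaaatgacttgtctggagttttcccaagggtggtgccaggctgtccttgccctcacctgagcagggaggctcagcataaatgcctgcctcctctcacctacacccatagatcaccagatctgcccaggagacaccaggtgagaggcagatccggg
Saa2: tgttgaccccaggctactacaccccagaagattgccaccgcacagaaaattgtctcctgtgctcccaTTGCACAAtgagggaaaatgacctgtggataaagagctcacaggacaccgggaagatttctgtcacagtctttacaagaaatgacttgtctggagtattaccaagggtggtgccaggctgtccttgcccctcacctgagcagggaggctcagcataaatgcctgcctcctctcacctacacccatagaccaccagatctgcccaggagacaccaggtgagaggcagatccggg
Lcn2: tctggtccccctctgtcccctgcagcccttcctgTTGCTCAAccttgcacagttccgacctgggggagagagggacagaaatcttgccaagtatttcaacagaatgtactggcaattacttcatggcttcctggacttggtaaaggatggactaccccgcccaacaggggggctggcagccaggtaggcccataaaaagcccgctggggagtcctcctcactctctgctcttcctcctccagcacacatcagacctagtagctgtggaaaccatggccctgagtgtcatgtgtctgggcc
Serpina3n: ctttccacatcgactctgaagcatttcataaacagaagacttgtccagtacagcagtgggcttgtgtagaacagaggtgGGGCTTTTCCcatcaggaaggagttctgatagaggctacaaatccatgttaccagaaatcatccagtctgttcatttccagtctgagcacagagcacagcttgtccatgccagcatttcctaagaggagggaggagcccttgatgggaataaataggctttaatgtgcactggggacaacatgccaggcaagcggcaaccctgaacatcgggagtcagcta
The *Saa3* window is chr7:46715627-46715926 (minus strand), the *Saa1* window chr7:46742931-46743230 (minus), the *Saa2* window chr7:46751583-46751882 (plus), the *Lcn2* window chr2:32387690-32387989 (minus) and the *Serpina3n* window chr12:104406458-104406757 (plus). *Saa3*, *Saa1*, *Saa2* and *Lcn2* each held 1 C/EBP match, a motif found in 10.8% of 32817 promoter windows of the same length. *Serpina3n* held 1 NF-κB match, found in 1.63% of windows. The STAT3 letters (8.29% of windows) and the TATA letters (13.6%) were in none of the 5. The *Saa1* and *Saa2* windows were 96.0% identical, and their C/EBP match began 182 and 183 bases before the start.

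*Saa3*, the serum amyloid A gene of extrahepatic tissue, reached 3115 CPM (interval 3107 to 3123) in iWAT_DFAT, 683 CPM in eWAT_DFAT, 80.9 CPM in eWAT_ASPC and 0.431 CPM in iWAT_ASPC. The order of the 4 libraries was the same by share of cells. After each cell was thinned to 5000 UMIs, 72.9% of iWAT_DFAT, 24.9% of eWAT_DFAT, 5.32% of eWAT_ASPC and 0.121% of iWAT_ASPC cells held a *Saa3* UMI; unthinned, the shares were 93.9%, 48.6%, 9.41% and 0.404%. Endothelial cells, defined by a UMI in 3 or more of *Pecam1*, *Cdh5*, *Tie1*, *Kdr* and *Egfl7*, served as a comparison type. Whether they lack the gene was not tested. *Saa3* stood in them at 206 against 3121 CPM in the other cells of iWAT_DFAT and 464 against 686 CPM in eWAT_DFAT. In eWAT_DFAT 327 of their 1100 UMIs lay in 1 cell. Of the endothelial cells, 26.3% of 19 cells in iWAT_DFAT and 15.0% of 147 cells in eWAT_DFAT had a *Saa3* UMI at the same thinned depth. Their median depths before thinning were 17694 and 11794 UMIs against 22111 and 27425 UMIs over all cells. Droplets of 1 to 100 UMIs, which hold free RNA, carried *Saa3* at 3518 CPM in iWAT_DFAT and 1019 CPM in eWAT_DFAT, above the level of the cells in both libraries.

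*Lcn2* stood at 179 CPM in iWAT_DFAT and 149 CPM in eWAT_DFAT against 0.542 CPM in iWAT_ASPC and 3.18 CPM in eWAT_ASPC. Both DFAT libraries were far above both ASPC libraries. Thinned shares of cells with a UMI were 30.2%, 19.4%, 0.283% and 1.44% in the same order. At this depth an *Lcn2* UMI was found in 15.8% of the 19 endothelial cells of iWAT_DFAT and 18.4% of the 147 of eWAT_DFAT, the latter close to the share over all cells. Endothelial cells held the gene in the ASPC libraries. In eWAT_DFAT, 5.17% of the 58 mesothelial cells, with a median depth of 21972 UMIs, had an *Lcn2* UMI. Free RNA carried *Lcn2* at 200 CPM in iWAT_DFAT and 156 CPM in eWAT_DFAT, not below the level of the cells.

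*Serpina3n* was high in 1 library. It stood at 80.3 CPM in iWAT_DFAT, 2.79 CPM in eWAT_DFAT, 1.40 CPM in iWAT_ASPC and 1.97 CPM in eWAT_ASPC, and 26.0% of thinned iWAT_DFAT cells had a UMI against 0.754% to 1.61% in the others. Of the 19 endothelial cells in iWAT_DFAT, 10.5% had one. Free RNA carried *Serpina3n* at 91.5 CPM in iWAT_DFAT and 5.26 CPM in eWAT_DFAT, above the level of the cells in both.

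*Hp*, encoding haptoglobin, was highest in eWAT_DFAT at 357 CPM, followed by iWAT_DFAT at 159 CPM, eWAT_ASPC at 119.9 CPM and iWAT_ASPC at 2.86 CPM. The levels of eWAT_DFAT and eWAT_ASPC lay 2.97-fold apart, and iWAT_ASPC stood below all others. Thinned shares of cells with a UMI were 28.5%, 30.1%, 18.1% and 0.539%. Endothelial cells gave 6.80% in eWAT_DFAT, 15.8% in iWAT_DFAT and 2.88% in eWAT_ASPC, and in eWAT_ASPC their median depth was 14832 UMIs against 27617 UMIs over all cells. Free RNA carried *Hp* at 329 CPM in eWAT_DFAT, 171.5 CPM in iWAT_DFAT and 85.7 CPM in eWAT_ASPC. The part of free RNA in the shares of cells with a UMI was not tested for any member.

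*Saa1* and *Saa2*, the main liver forms of serum amyloid A, were low and found nearly only in the DFAT libraries. *Saa1* gave 1212 UMIs in eWAT_DFAT (6.53 CPM) and 311 in iWAT_DFAT (1.69 CPM) against 2 in iWAT_ASPC and 1 in eWAT_ASPC. *Saa2* gave 1280 UMIs in eWAT_DFAT (6.90 CPM) and 388 in iWAT_DFAT (2.11 CPM) against 1 in iWAT_ASPC and 0 in eWAT_ASPC, for which the 95% Poisson interval reaches 0.0187 CPM and a floor of 3 UMIs stands at 0.0152 CPM. *Orm1*, encoding the plasma carrier orosomucoid 1, gave 37 UMIs in iWAT_DFAT, 29 in eWAT_DFAT, 2 in iWAT_ASPC and 0 in eWAT_ASPC. Over all cells the *Orm1* levels of both DFAT libraries did not differ beyond counting error, with an interval of the log2 ratio from -0.37 to 1.12. This depended on the cells taken. Without the cells with an *Adipoq* UMI and the mesothelial cells the log2 ratio was 3.01, from 33 against 4 UMIs. In cells with no cycling marker it was -0.88. The ASPC libraries could not be ordered for *Saa1*, *Saa2* or *Orm1* at this depth.

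**Figure D1:**
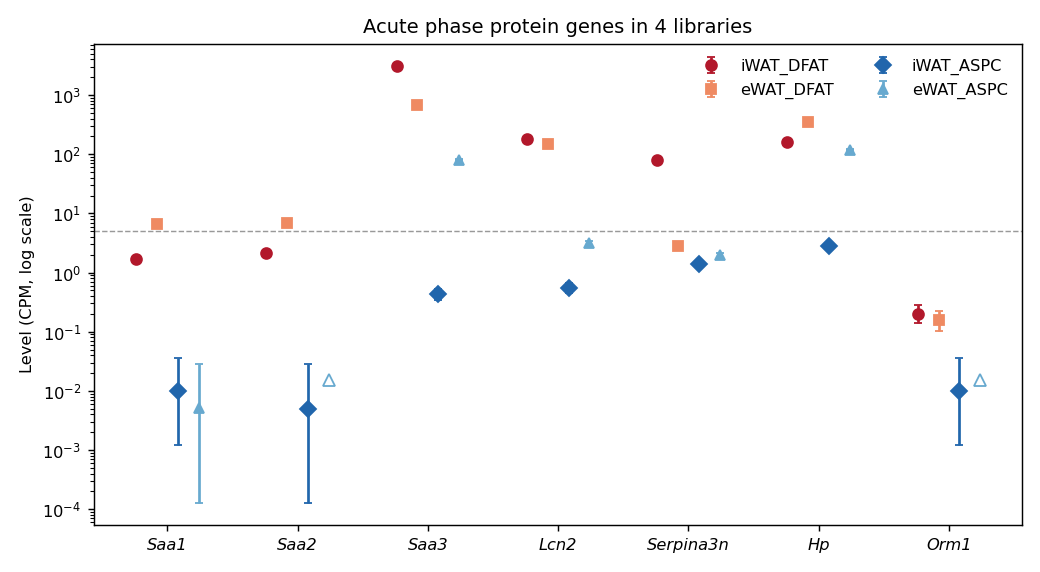
Level of each gene in the 4 libraries, in CPM on a log scale, with 95% Poisson intervals that cover counting error only; open triangles mark eWAT_ASPC with no UMI, drawn at the level of 3 UMIs, and the dashed line is at 5 CPM. Points of the DFAT libraries lie above those of the ASPC library of the same depot for every gene, by 12.82 on the log2 scale for *Saa3* in iWAT and by 0.50 for *Serpina3n* in eWAT.

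The comparison of DFAT cells with ASPCs of the same depot sets cells from adipocytes in ceiling culture beside progenitors cultured in dishes. Effects of origin and of culture are mixed in it. A member counted as changed when its level differed at least 2-fold and reached 5 CPM in the higher library. In iWAT, 4 of the 4 members at 5 CPM or more were at least 2-fold higher in DFAT cells, beside 9.91% of all 10426 genes at this minimum, and 0 were at least 2-fold lower, beside 5.18%. Those members were chosen with these differences known, and all 4 were below 5 CPM in iWAT_ASPC, so nothing is read from the count. A gene that reaches the minimum in 1 group alone passes through the group where it is high, here and in the comparisons that follow. *Saa3* was higher by 12.82 on the log2 scale (interval 12.51 to 13.14), from 0.431 to 3115 CPM. *Lcn2* was higher by 8.37, *Serpina3n* by 5.84 and *Hp* by 5.79. *Saa1*, *Saa2* and *Orm1* were below 5 CPM in iWAT_DFAT and are given only by their UMIs above.

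In eWAT, 5 of the 5 members at 5 CPM or more were at least 2-fold higher in DFAT cells, beside 6.44% of all 10298 genes, and 0 were at least 2-fold lower, beside 6.67%. *Lcn2* was higher by 5.55 on the log2 scale, *Saa3* by 3.08 and *Hp* by 1.57. *Saa1* was higher by 10.33, with an interval of 7.85 to 15.64 since eWAT_ASPC held 1 UMI. *Saa2* had no UMI in eWAT_ASPC: with 3 UMIs set there its log2 ratio was 8.83, and the exact interval of its ratio began at 8.53. *Saa1*, *Saa2* and *Lcn2* (3 of 5) reached 5 CPM only in eWAT_DFAT, so nothing is read from the count. *Serpina3n* stood at 2.79 against 1.97 CPM, below the minimum, with a log2 ratio of 0.50. In cells with no cycling marker, an alternative chosen after seeing the data, it stood at 8.13 against 3.50 CPM, a log2 ratio of 1.22 that passes the minimum and 2-fold. With cells with an *Adipoq* UMI and mesothelial cells also left out, *Serpina3n* stood at 6.75 against 3.45 CPM, under 2-fold, which ends that call. Without the cells with an *Adipoq* UMI and the mesothelial cells, the count in eWAT was 2: *Saa3* was then higher by 6.68 and *Lcn2* by 5.21. *Hp* was then higher by 0.96, and *Saa1* and *Saa2* fell below 5 CPM. The step removes the mesothelial cells, which held 93.8% of the *Saa3* UMIs of eWAT_ASPC. The *Saa3* left there, at 5.38 CPM outside mesothelial cells, lay below its 117 CPM in free RNA. The size of the 6.68 is therefore not read. In iWAT the same step left the count at 4, with *Saa3* at 12.80, *Lcn2* at 8.30 and *Serpina3n* at 5.87, but moved *Hp* from 5.79 to 6.63. In cells with no cycling marker the iWAT ratio of *Hp* was 4.84, at 284.7 against 9.94 CPM. With cells with an *Adipoq* UMI and mesothelial cells also left out, *Hp* stood at 274 against 1.59 CPM. The *Hp* UMIs of iWAT_ASPC fell from 320 to 51 in that step.

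Between the DFAT cells of both depots the members did not move one way. *Saa3* was higher in iWAT_DFAT by 2.19 on the log2 scale (interval 2.18 to 2.20) and *Serpina3n* by 4.85 (4.72 to 4.97), that is 2 of 6 members at the minimum, beside 8.29% of all 10384 genes. *Saa1* was lower in iWAT_DFAT with a log2 ratio of -1.95, *Saa2* with -1.71 and *Hp* with -1.17, that is 3 of 6, beside 3.95%. *Lcn2* had a log2 ratio of 0.26. *Serpina3n* reached 5 CPM only in iWAT_DFAT, and *Saa1* and *Saa2* only in eWAT_DFAT, so nothing is read from these counts. Without the cells with an *Adipoq* UMI and the mesothelial cells, the *Saa1* and *Saa2* ratios turned to 1.17 and 0.73 and that of *Hp* to -0.71, whereas *Saa3* stood at 2.48 and *Serpina3n* at 5.04. *Saa1* and *Saa2* were then below 5 CPM in both libraries. Outside *Adipoq*, mesothelial and endothelial cells they stood at 1.59 and 1.39 CPM in iWAT_DFAT and 0.703 and 0.845 CPM in eWAT_DFAT. Free RNA held them at 1.66 CPM each in iWAT_DFAT and 8.10 and 7.29 CPM in eWAT_DFAT, so no difference is read. Cells with an *Adipoq* UMI made 3.30% of eWAT_DFAT and 0.524% of iWAT_DFAT. The progenitor marker *Dcn* moved with *Saa3* between these libraries, at 1687 CPM in iWAT_DFAT and 255 CPM in eWAT_DFAT. The part of *Dcn*-rich cells in the difference was not tested.

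Among ASPCs, 2 of the 2 members at 5 CPM or more were lower in iWAT_ASPC, beside 3.94% of all 10135 genes, and 0 were higher, beside 2.94%. Both reached 5 CPM only in eWAT_ASPC, so nothing is read from the count. *Saa3* had a log2 ratio of -7.55 (interval -7.87 to -7.25) and *Hp* of -5.39 (-5.51 to -5.27). Without the cells with an *Adipoq* UMI and the mesothelial cells the *Saa3* ratio was -3.63 and the *Hp* ratio -6.38. Outside mesothelial cells *Saa3* stood at 5.38 CPM in eWAT_ASPC, below its 117 CPM in free RNA. No difference is therefore read from the *Saa3* ratio of -3.63. *Lcn2* stood at 0.542 against 3.18 CPM and *Serpina3n* at 1.40 against 1.97 CPM, below the minimum. The iWAT_ASPC file header names Cell Ranger 4 and the others 7.1.0, and whether introns were counted alike in all 4 libraries is not given in the sources used here, which bears on each ratio with iWAT_ASPC. The median log2 ratio of iWAT_ASPC over eWAT_ASPC was 0.05 over all genes and 0.15 over the tenth of genes with the longest span. For iWAT_DFAT over eWAT_DFAT these were 0.09 and 0.35. These 4 comparisons share libraries and are not independent of each other.

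The UMIs of the members were spread over cells very unevenly. In iWAT_DFAT, 661 of 7629 cells held 50% of the *Saa3* UMIs, and in eWAT_DFAT 123 of 6464 cells did. At 5000 UMIs per cell, iWAT_DFAT had a median of 3 *Saa3* UMIs, an upper quartile of 21 and a 90th percentile of 58. The same percentiles in eWAT_DFAT were 0, 0 and 6. The 99th percentile was 189 and 125 UMIs. Cells with 120 or more UMIs made 3.19% and 1.10%, and cells with 200 or more 0.878% and 0.387%. Cells with 20 or more *Saa3* UMIs made 26.0% of iWAT_DFAT (25.02% to 27.0%) and 5.48% of eWAT_DFAT (4.93% to 6.06%), 1.22% of eWAT_ASPC and 0 of 7424 cells in iWAT_ASPC, which allows up to 0.0497% by the exact binomial interval. For *Hp*, 414 cells of iWAT_DFAT, 143 of eWAT_DFAT, 150 of eWAT_ASPC and 3 of iWAT_ASPC held 50% of the UMIs. For *Serpina3n* in iWAT_DFAT the number was 682 cells, close to that for *Saa3*.

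**Figure D2:**
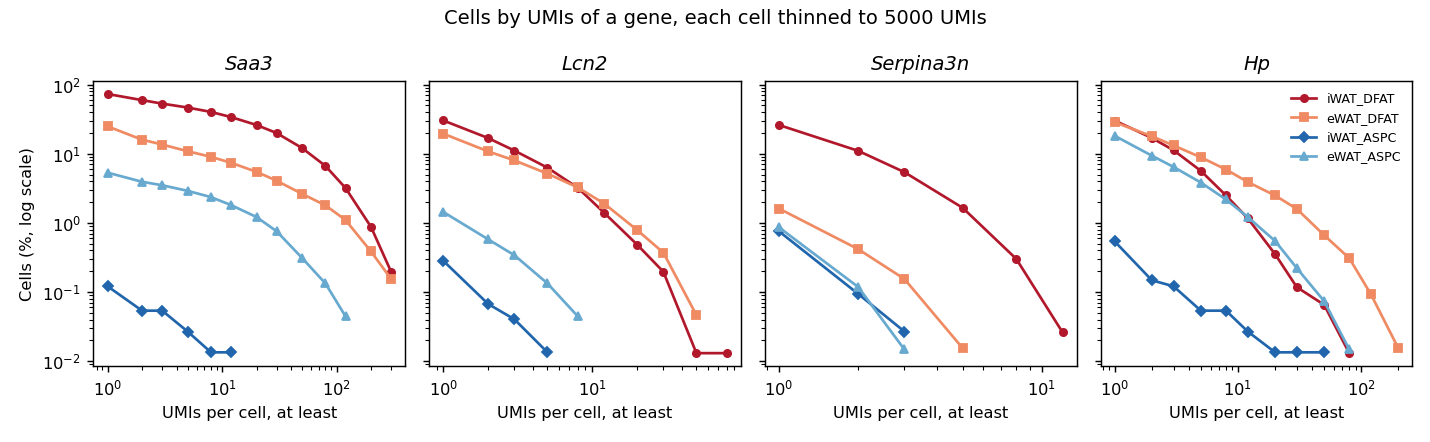
Percent of cells (log scale) with at least the number of UMIs on the x axis (log scale), for 4 genes and 4 libraries, after each cell was thinned to 5000 UMIs; cells at 0 are not drawn. The *Saa3* curves of iWAT_DFAT and eWAT_DFAT start at 72.9% and 24.9% and stand at 0.878% and 0.387% at 200 UMIs, and the *Serpina3n* curve of iWAT_DFAT lies above those of the other libraries, which start at 0.754% to 1.61%.

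*Saa1* and *Saa2* in eWAT_DFAT came from few cells. For *Saa1*, 26 cells with 10 or more UMIs held 85.1% of its UMIs, and 23 of these had an *Adipoq* UMI. For *Saa2*, 17 such cells held 90.9%, and 15 of them had an *Adipoq* UMI. Of the cells with 10 or more UMIs, 14 were the same for both genes. All 26 and all 17 held *Hp* and *Lcn2* UMIs, and 25 and 17 held *Saa3* UMIs. None of them had 3 or more of 7 cycling markers. They were shallower, at median depths of 13500 and 11749 UMIs against 27425 UMIs over all cells. The part of depth in the lack of cycling markers was not tested. In iWAT_DFAT, *Saa1* was spread thinly: 1 cell reached 10 UMIs, and 3 of the 202 cells with a *Saa1* UMI had an *Adipoq* UMI. There 7 cells reached 10 *Saa2* UMIs and held 48.2% of them.

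Cells with at least 1 UMI of the adipocyte transcript *Adipoq*, encoding adiponectin, had higher *Saa3*, *Lcn2* and *Hp* in both DFAT libraries. Of these cells, 17 of 40 in iWAT_DFAT and 93 of 213 in eWAT_DFAT had a single *Adipoq* UMI. *Adipoq* stood at 2.07 CPM in the free RNA of iWAT_DFAT, from 15 UMIs, and at 9.72 CPM in that of eWAT_DFAT, against 1.23 and 11.3 CPM in cells. In eWAT_DFAT 1.36% of endothelial cells had an *Adipoq* UMI, beside 3.30% of all cells, and in iWAT_DFAT 1 of 19 did. The endothelial cells of eWAT_DFAT were shallower, at a median of 11794 UMIs against 27425 UMIs over all cells. On thinned cells the eWAT_DFAT shares lay closer, at 1.36% of endothelial cells and 1.92% of all cells. How many of the single UMIs were free RNA was not tested. In iWAT_DFAT (40 of 7629 cells), 6 of the 6 members at 5 CPM or more in either group exceeded the remaining cells at least 2-fold, beside 9.17% of all genes, and 0 were lower, beside 7.7%. *Saa1* and *Saa2* passed the minimum only through the *Adipoq* cells, which fixed their call, and 18 of the 22 *Saa1* UMIs there lay in 1 cell. In eWAT_DFAT (213 of 6464 cells) it was also 6 of 6, beside 8.39%, and 0 lower, beside 1.92%, with *Saa1*, *Saa2* and *Serpina3n* at the minimum only in the *Adipoq* cells. Nothing is read from either count. *Hp* reached 4175 CPM in these cells of eWAT_DFAT against 243 CPM in the rest (log2 ratio 4.11) and 1939 against 149 CPM in iWAT_DFAT (3.70). *Lcn2* reached 1135 against 119.9 CPM in eWAT_DFAT (3.24) and 1979 against 169.998 CPM in iWAT_DFAT (3.54). *Saa3* reached 10423 against 3077 CPM in iWAT_DFAT (1.76) and 3487 against 599.7 CPM in eWAT_DFAT (2.54). *Saa1* and *Saa2* in eWAT_DFAT reached 202 and 210.1 CPM against 0.699 and 0.832 CPM, with log2 ratios of 8.17 and 7.98. *Serpina3n* gave log2 ratios of 1.46 in iWAT_DFAT and 2.74 in eWAT_DFAT. Median depths were 21048 against 22111 UMIs in iWAT_DFAT and 22594 against 27560 UMIs in eWAT_DFAT, so the cells with *Adipoq* were not the deeper ones. With a UMI in 3 or more of 6 adipocyte markers as the definition, 16 cells of iWAT_DFAT and 129 of eWAT_DFAT remained. The log2 ratios of *Saa3*, *Lcn2* and *Hp* were then 2.10, 4.31 and 4.25 in iWAT_DFAT and 2.78, 3.77 and 4.67 in eWAT_DFAT.

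These cells nevertheless held a minority of most members. In iWAT_DFAT they carried 1.73% of the *Saa3*, 5.71% of the *Lcn2*, 1.41% of the *Serpina3n* and 6.32% of the *Hp* UMIs. In eWAT_DFAT they carried 14.8% of the *Saa3*, 22.0% of the *Lcn2*, 16.6% of the *Serpina3n* and 33.9% of the *Hp* UMIs, but 89.6% of the *Saa1*, 88.3% of the *Saa2* and 25 of the 29 *Orm1* UMIs. In the ASPC libraries such cells were too few for a comparison, 11 in iWAT_ASPC and 4 in eWAT_ASPC. The 11 held 270 of the 570 *Hp* UMIs of iWAT_ASPC, 197 of them in 1 cell.

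Mesothelial cells, which line the epididymal fat, were defined by a UMI in 3 or more of *Upk3b*, *Upk1b*, *Lrrn4*, *Msln* and *Krt19*. They numbered 492 in eWAT_ASPC, 58 in eWAT_DFAT, 1 in iWAT_ASPC and 0 in iWAT_DFAT. In eWAT_ASPC they made 7.29% of the cells and held 14987 of the 15982 *Saa3* UMIs. *Saa3* stood there at 1190 CPM (1189.88) against 5.38 CPM in the other cells, a log2 ratio of 7.79, and 55.1% against 1.41% of thinned cells had a UMI. The remaining 5.38 CPM lay below the 117 CPM of *Saa3* in free RNA. With 4 or more of the 5 mesothelial markers as the definition the log2 ratio was 6.09. With free RNA subtracted at 10% it was 16.15, with the other cells set to 3 *Saa3* UMIs. In eWAT_DFAT *Saa3* stood at 6614 CPM in mesothelial cells against 637 CPM in the others, a log2 ratio of 3.38. Outside cells of the Adipoq, mesothelial and endothelial kinds, *Saa3* was at 3083 CPM in iWAT_DFAT, 552 CPM in eWAT_DFAT, 0.434 CPM in iWAT_ASPC and 5.38 CPM in eWAT_ASPC.

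*Saa3* was the 1 member at least 2-fold higher in mesothelial cells, 1 of 5 at the minimum in eWAT_DFAT beside 10.1% of all genes and 1 of 2 in eWAT_ASPC beside 12% of all genes. In eWAT_DFAT 4 of 5 members were lower there, beside 8.46%. *Lcn2* had a log2 ratio of -3.38 and *Hp* of -2.46, and *Saa1* and *Saa2* had no UMI in the 58 cells. The call of *Saa1* and *Saa2* rests on the few *Adipoq* cells in the comparison group: outside the *Adipoq*, mesothelial and endothelial kinds they were at 0.703 and 0.845 CPM. On thinned cells their log2 ratios, with 0 set to 3 UMIs, were -0.37 and -0.30. With no UMI in the mesothelial cells that floor sets these values, so they cannot decide the call. Nothing is read from the call of *Saa1* and *Saa2*. In eWAT_ASPC *Hp* was lower with a log2 ratio of -2.15, at 28.4 against 126 CPM, beside 5.88% of all genes. *Lcn2* stood at 1.27 against 3.31 CPM there, below the minimum.

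Much of the *Lcn2* in the ASPC libraries lay in few endothelial cells. The 52 endothelial cells of iWAT_ASPC held 65 of the 108 *Lcn2* UMIs, at 64.6 CPM against 0.217 CPM in the other cells. The 139 endothelial cells of eWAT_ASPC held 314 of 629, at 124 against 1.62 CPM. *Lcn2* was the 1 member at the minimum in iWAT_ASPC through these endothelial cells alone, which fixed its call as at least 2-fold higher, beside 16.8% of all genes, with 0 lower, beside 9.71%. In eWAT_ASPC it was 1 of 3, again through the endothelial cells alone, beside 15.4%. *Saa3* and *Hp* were lower, beside 9.67%. The *Saa3* call rests on the mesothelial cells in the comparison group. *Saa3* stood at 3.93 CPM in endothelial cells against 81.9 CPM in the others. Outside the *Adipoq*, mesothelial and endothelial kinds it was at 5.38 CPM. In the DFAT libraries *Lcn2* stood in endothelial cells at 24.8 against 179.7 CPM in iWAT_DFAT and 213 against 148 CPM in eWAT_DFAT. In eWAT_DFAT, 1 of 5 members, *Saa1*, was higher in endothelial cells, beside 14.3%, with 45 of its 56 UMIs there in 1 cell. *Saa2* and *Hp* were lower, beside 9.81%. The *Saa2* call rests on the few *Adipoq* cells in the comparison group. *Saa2* stood at 0.843 CPM in endothelial cells, from 2 UMIs, and at 0.845 CPM outside the *Adipoq*, mesothelial and endothelial kinds. Without endothelial cells, a step chosen after seeing the data, the *Lcn2* log2 ratio of DFAT cells over ASPCs was 9.70 in iWAT and 6.52 in eWAT.

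**Figure D3:**
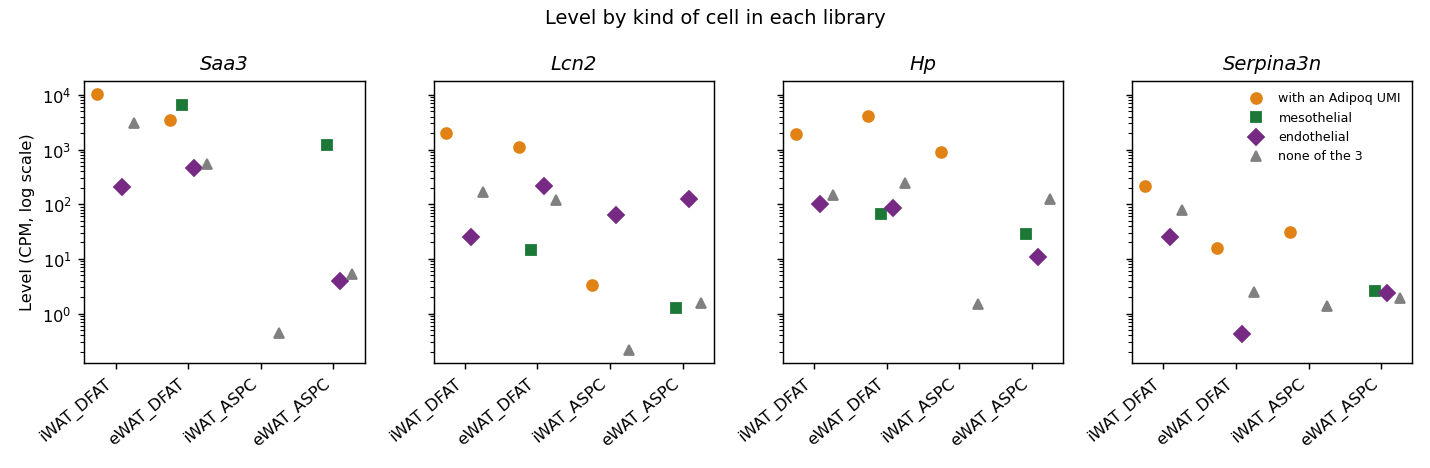
Level in CPM (log scale) of 4 genes in cells with an *Adipoq* UMI, mesothelial cells, endothelial cells and all remaining cells of each library; kinds with under 10 cells or no UMI are not drawn. The highest *Saa3* point of eWAT_ASPC is the mesothelial one at 1189.88 CPM and the highest *Lcn2* point there the endothelial one at 124 CPM, whereas the *Adipoq* points lead for *Lcn2* and *Hp* in the DFAT libraries.

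Cycling cells, with a UMI in 3 or more of *Top2a*, *Mki67*, *Cdk1*, *Ccnb1*, *Birc5*, *Cenpf* and *Nusap1*, had lower *Saa3*, *Lcn2* and *Hp* in both DFAT libraries when set against cells with none of these markers. They made 47.3% of iWAT_DFAT, 54.4% of eWAT_DFAT, 49.7% of iWAT_ASPC and 38.2% of eWAT_ASPC. The members at least 2-fold lower in cycling cells were 5 of 5 in iWAT_DFAT beside 3.09% of all genes, 6 of 6 in eWAT_DFAT beside 3.55%, 1 of 1 in iWAT_ASPC beside 1.31% and 3 of 3 in eWAT_ASPC beside 0.985%. In each library 0 members were higher, beside 5.87%, 4.57%, 5.31% and 5.15% of all genes. *Saa2* in iWAT_DFAT reached the minimum only in cells with no cycling marker, as did *Saa1*, *Saa2* and *Serpina3n* in eWAT_DFAT, *Hp* in iWAT_ASPC and *Lcn2* in eWAT_ASPC, so the counts were in part fixed and nothing is read from them. *Saa3* stood at 1593 against 6368 CPM in iWAT_DFAT and 354 against 1964 CPM in eWAT_DFAT, log2 ratios of -1.999 and -2.47. Log2 ratios of *Hp* were -1.60 and -1.97 in the same libraries, and those of *Lcn2* -1.81 and -2.01. The adipocyte transcripts moved with these: *Adipoq* stood at 2.63 against 42.9 CPM and *Plin1*, encoding the lipid droplet coat protein perilipin, at 13.2 against 57.5 CPM in eWAT_DFAT, and at 0.563 against 1.49 CPM and 6.55 against 23.5 CPM in iWAT_DFAT. Without the cells with an *Adipoq* UMI and the mesothelial cells, a step added after seeing the data, the log2 ratios of *Saa3*, *Lcn2* and *Hp* were -1.99, -1.79 and -1.60 in iWAT_DFAT and -2.40, -1.71 and -1.50 in eWAT_DFAT. In eWAT_ASPC *Saa3* stood at 24.9 against 171 CPM, where mesothelial cells made 6.25% of cycling cells and 9.22% of cells with no cycling marker. Without them it stood at 3.07 against 10.5 CPM, below its level in free RNA, so no difference is read there. *Hp* stood at 71.7 against 189.6 CPM in that step, a log2 ratio of -1.40. In iWAT_ASPC the *Hp* ratio of -2.43 turned to 0.22 in the same step, at 1.85 against 1.59 CPM. Cycling cells were deeper, at medians of 26579 against 18252 UMIs in iWAT_DFAT. At equal depth, 65.4% against 84.2% of cells had a *Saa3* UMI in iWAT_DFAT and 20.7% against 33.8% in eWAT_DFAT. The part of depth in the difference was not tested. Among cells with no cycling marker alone, *Saa3* was higher in DFAT cells by 12.79 in iWAT and 3.52 in eWAT, and the iWAT_DFAT over eWAT_DFAT ratio was 1.70.

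Within the DFAT libraries the levels of several members varied together from cell to cell. The correlations that follow are over the log2 of 1 plus the thinned UMIs of all cells of 1 library, which share that library and its free RNA, and are descriptions. In iWAT_DFAT (7629 cells) Pearson's r of *Saa3* was 0.49 with *Lcn2*, 0.45 with *Hp* and 0.44 with *Serpina3n*. Of the cells with an *Lcn2* UMI, 90.8% also held *Saa3*, beside 72.9% of all cells. In eWAT_DFAT (6464 cells) r was 0.52 between *Saa3* and *Lcn2*, 0.46 between *Lcn2* and *Hp*, 0.39 between *Saa3* and *Hp* and 0.79 between the near copies *Saa1* and *Saa2*. Of the cells with an *Lcn2* UMI there, 56.2% held *Saa3*, beside 24.9% of all cells. In eWAT_ASPC (6745 cells) *Saa3* and *Hp* had an r of -0.03. A UMI of 3 or more of the 7 members was found in 24.6% of iWAT_DFAT, 7.66% of eWAT_DFAT, 0.0539% of iWAT_ASPC and 0.0890% of eWAT_ASPC cells at equal depth.

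Among the other genes at 20 CPM or more, those most like each member by r differed between libraries. In iWAT_DFAT the 5 genes most like *Saa3* of 6287 were *Dcn* (0.62), *Cxcl12* (0.60), *C3* (0.60), *Serping1* (0.57) and *Col3a1* (0.51). In eWAT_DFAT they were *C3* (0.53), *Lcn2* (0.52), *Serping1* (0.44), *Dcn* (0.42) and *Cp* (0.40), of 5980. In eWAT_ASPC they were *Cxadr* (0.70), *Slpi* (0.65), *Trf* (0.62), *Tmem108* (0.62) and *Flrt2* (0.61), of 5839. *C3*, the central complement protein, thus ranked among the first 5 for *Saa3* in the DFAT libraries. In eWAT_ASPC it ranked 19 of 5839, with an r of 0.43. *Hp* was most like *Saa3* (0.45) and *Serping1* (0.36) in iWAT_DFAT but most like the lipid genes *Plin1* (0.55), *Scd1* (0.49) and *Lpl* (0.49) in eWAT_DFAT. In eWAT_ASPC *Hp* was most like *Igfbp4* (0.34), *Ptx3* (0.28) and *Mfap5* (0.28). *Serpina3n* in iWAT_DFAT was most like *Chl1* (0.45), *Saa3* (0.44) and *Dcn* (0.43). *Lcn2* was most like *Saa3* in both DFAT libraries, followed by *C3* in iWAT_DFAT (0.43) and by *Hp* in eWAT_DFAT.

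Of 30 other acute phase protein genes, 29 were in the files. In iWAT, 11 of the 11 at 5 CPM or more were at least 2-fold higher in DFAT cells, beside 9.91% of all genes, and 0 lower, beside 5.18%. Of these, *Cp*, *Steap4*, *Hpx*, *Serpina3g*, *Serpina3f* and *Serpina3i* (6 of 11) reached 5 CPM only in iWAT_DFAT, so the minimum fixed part of the count, and nothing is read from it or from the median log2 ratio of 4.35, beside 0.09 over all genes. *Ptx3*, *Mt1*, *Mt2*, *C3* and *Lbp* were at 5 CPM or more in both libraries, with log2 ratios of 2.65, 2.07, 3.42, 4.95 and 1.85. *Ptx3*, a long pentraxin, stood at 1525 against 244 CPM. The metallothioneins *Mt1* and *Mt2* stood at 986 against 235 CPM and 379.5 against 35.3 CPM. *C3* stood at 271 against 8.81 CPM, *Steap4*, a metalloreductase, at 50.5 against 0.321 CPM and *Cp*, encoding the copper carrier ceruloplasmin, at 47.4 against 4.04 CPM. The *Serpina3* paralogs *Serpina3g*, *Serpina3f* and *Serpina3i* stood at 56.3 against 2.76 CPM, 8.93 against 0.0451 CPM and 7.41 against 0.0953 CPM. Paralogs such as these were 73.8% to 76.0% identical to *Serpina3n* over the last 300 transcript bases.

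In eWAT, 2 of the 7 other acute phase genes at the minimum were at least 2-fold higher in DFAT cells, beside 6.44% of all genes, and 1 was lower, beside 6.67%. The median log2 ratio was 0.75 beside 0.07. *Cp* (55.0 against 14.6 CPM) and *Mt2* (76.5 against 32.3 CPM) were higher. *Lbp*, encoding the lipopolysaccharide binding protein, was lower at 4.82 against 24.5 CPM, the 1 call here that passed the minimum in 1 library alone. *C3* stood at 87.1 against 92.0 CPM. Between DFAT libraries, 10 of 11 were at least 2-fold higher in iWAT_DFAT, beside 8.29% of all genes, with *Cp* as the exception at 47.4 against 55.0 CPM. Of the 10, *Serpina3g*, *Serpina3f*, *Serpina3i*, *Hpx* and *Lbp* (5 genes) reached 5 CPM only in iWAT_DFAT, so the minimum fixed part of the count and nothing is read from it. The liver genes *Fgb* and *Fgg* had no UMI in any library, and *Crp* was at most 0.0762 CPM.

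Of 7 genes whose proteins fall in the acute phase, 2 reached 5 CPM, and both were at least 2-fold higher in DFAT cells of each depot, beside 9.91% of all genes in iWAT and 6.44% in eWAT. Both in iWAT and *Rbp4* in eWAT reached 5 CPM only in the DFAT library, so nothing is read from the counts. *Trf*, encoding transferrin, stood at 13.6 CPM in iWAT_DFAT, 81.1 CPM in eWAT_DFAT, 2.61 CPM in iWAT_ASPC and 30.1 CPM in eWAT_ASPC. *Rbp4*, encoding the retinol carrier, stood at 16.4, 27.8, 1.14 and 4.54 CPM in the same order.

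Cytokines and receptors that induce the acute phase were counted in the same way. In iWAT, 7 of 11 cytokine and receptor genes at the minimum were at least 2-fold higher in DFAT cells, beside 9.91% of all genes, and 0 lower, beside 5.18%, with a median log2 ratio of 1.33. In eWAT 5 of 12 were higher, beside 6.44%, and 0 lower, beside 6.67%, with a median of 0.38. *Lif* and *Il11* in both depots, and *Il1a* in eWAT, reached 5 CPM only in the DFAT library, that is 2 of the 7 and 3 of the 5, so the minimum fixed part of these counts and nothing is read from them. *Il6* stood at 239 CPM in iWAT_DFAT, 109.9 CPM in eWAT_DFAT, 17.2 CPM in iWAT_ASPC and 33.2 CPM in eWAT_ASPC. *Il1r1*, the interleukin-1 receptor, stood at 881, 183, 106 and 95.5 CPM. *Lif* stood at 62.2, 33.0, 3.55 and 4.55 CPM, whereas *Il1a* was highest in eWAT_DFAT, at 12.3 CPM against 3.83 CPM in iWAT_DFAT. *Tnf* and *Il1b* were below 1 CPM in each library.

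Of 13 transcription factor and feedback genes of these pathways, 12 were at least 2-fold higher in DFAT cells in iWAT, beside 9.91% of all genes, with a median log2 ratio of 2.01. In eWAT 3 were higher, beside 6.44%, and 2 lower, beside 6.67%, with a median of 0.38. *Nfkbia*, the NF-κB inhibitor that NF-κB itself induces, stood at 464 against 44.3 CPM in iWAT and 226 against 42.5 CPM in eWAT. *Cebpb* stood at 709.9 against 176 CPM in iWAT and 467 against 358 CPM in eWAT. *Cebpd* was lower in DFAT cells of eWAT, at 95.5 against 237 CPM, and so was *Socs3*, an inhibitor of STAT3 signalling, at 9.37 against 18.8 CPM. Of 11 receptors of acute phase proteins, 3 of the 6 at the minimum were higher in DFAT cells in iWAT, beside 9.91%, and 1 lower, beside 5.18%. In eWAT 1 of 5 was higher and 1 lower, beside 6.44% and 6.67%. Of these calls only that of *Tlr4* in iWAT was at 5 CPM or more in both libraries, so nothing is read from the counts. *Cd36*, a scavenger receptor and fatty acid transporter, stood at 74.2 CPM in eWAT_DFAT against 2.64 CPM in eWAT_ASPC. *Lrp2*, a receptor of lipocalin 2, was lower in DFAT cells, at 0.305 against 5.52 CPM in iWAT and 0.652 against 12.4 CPM in eWAT.

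**Figure D4:**
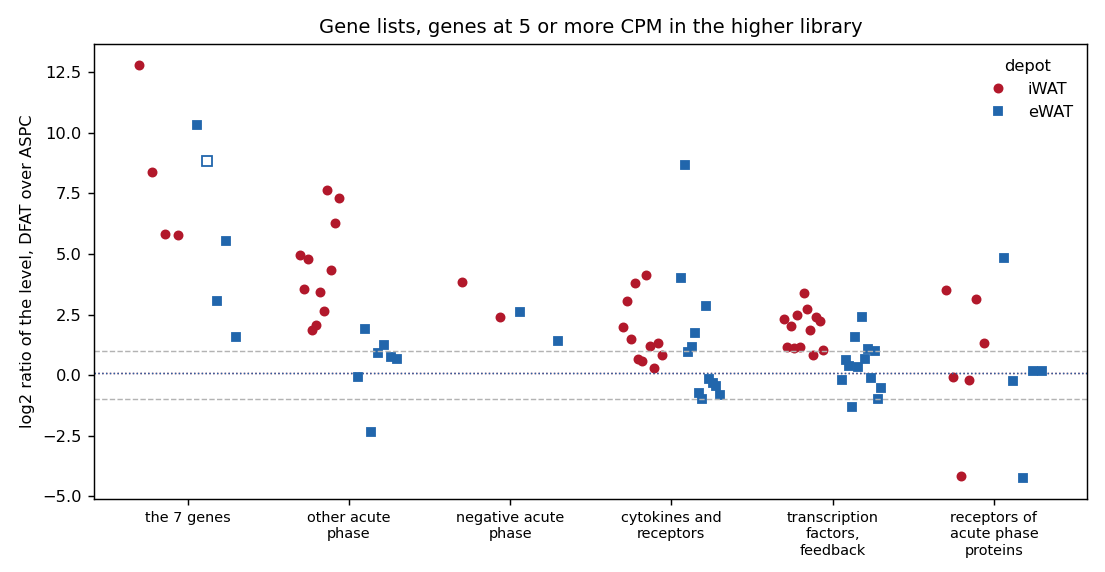
Log2 ratio of the level in DFAT cells over ASPCs in iWAT (circles) and eWAT (squares), 1 point per gene at 5 CPM or more in the higher library, by gene list. Dashed lines mark 2-fold and dotted lines the median of all genes. The open square is the value for *Saa2* with 3 UMIs set in eWAT_ASPC. The iWAT points of the other acute phase list lie above the upper dashed line, but 6 of the 11 pass the minimum through iWAT_DFAT alone. The eWAT points have a median of 0.75.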

How the data were processed

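Cultured DFAT cells and ASPCs of iWAT and eWAT were each profiled in 1 droplet library (10x Genomics 3′). The deposited values are UMI counts per gene and barcode, made by the authors with Cell Ranger against mm10, before CellBender, cell filters or doublet removal. The submitters' notes name Cell Ranger 7.0.0, while the file headers name 7.1.0 for 3 libraries and 4 for iWAT_ASPC. The methods state that introns were included; whether this held alike for all 4 libraries is not given in the sources used here.

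Cells were barcodes with 5000 to 75000 UMIs, 200 to 7500 genes and under 10% mitochondrial UMIs; the study's lower limit of 500 UMIs left 6988 to 7843 cells per library. No clusters were formed and no doublet caller was run; leaving out the 5% of cells with the most UMIs in each library stands in for one. UMIs were summed over cells and scaled to CPM. Levels carry exact Poisson, shares Clopper-Pearson and ratios exact conditional binomial 95% intervals, for counting error only. A count of 0 was set to 3 UMIs per library or group of cells for ratios, and such a value is not the end of an interval. Cells were thinned without replacement to 5000 UMIs. Free RNA came from droplets of 1 to 100 UMIs. The scripts were checked on simulated data. Computations used SciPy 1.17.1, pandas 2.3.3 and NumPy 2.4.6 in Python 3.11.15, with Biopython 1.88 for alignments and matplotlib 3.10.9 for plots.

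The members, gene lists, markers, motifs and rules were chosen with earlier results of these data known. Named genes are the 7 members, listed genes at 5 CPM or more and the 5 genes most like each member by r; genes named at lower levels were added after their values were seen. Alternatives changed cell filters, depth, free RNA, weighting, scaling, folds, minimum level and the definitions of cell kinds.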

Additional observations from a re-analysis of the deposited data

Results flagged for a closer look

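For 3 members the ratio of iWAT over eWAT had opposite signs in DFAT cells and in ASPCs, with counting intervals away from 0 on both sides; the difference between both ratios was not tested, since each condition has 1 library. The log2 ratio of *Saa3* was 2.19 among DFAT libraries and -7.55 among ASPC libraries. That of *Lcn2* was 0.26 among DFAT libraries and -2.56 among ASPC libraries, and in cells with no cycling marker the DFAT value was -0.06. That of *Serpina3n* was 4.85 among DFAT libraries and -0.49 among ASPC libraries. The ASPC levels of *Lcn2* and *Serpina3n* lay below 5 CPM in both libraries. In eWAT_ASPC 93.8% of the *Saa3* UMIs were in mesothelial cells. Without these and the cells with an *Adipoq* UMI the *Saa3* values were 2.48 and -3.63. The *Saa3* left in eWAT_ASPC, at 5.38 CPM outside mesothelial cells, lay below its 117 CPM in free RNA. No difference is therefore read from the -3.63.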

How the results depend on the processing

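Of the counts of members under the alternatives, 157 of 162 stayed within 1.5 times the reported count. Members at least 2-fold higher in iWAT_DFAT than in iWAT_ASPC were 7 with no minimum level. Without cells with an *Adipoq* UMI and mesothelial cells, members higher in eWAT_DFAT than in eWAT_ASPC were 2, and members lower in iWAT_DFAT than in eWAT_DFAT were 0, as they also were (0) at 4-fold. In the same step the log2 ratios of *Saa1* and *Saa2* between DFAT libraries reversed to 1.17 and 0.73. Their levels were then below 5 CPM and not above free RNA in both libraries, so no difference is read. The construction of the step removes the cells that hold 89.6% and 88.3% of the eWAT_DFAT UMIs of *Saa1* and *Saa2*. In cycling cells against cells with no cycling marker, the same step, here added after seeing the data, took the members at least 2-fold lower in iWAT_ASPC to 0 and reversed the log2 ratio of *Hp* there to 0.22; it removes 0.262% of the cells with no cycling marker in that library. Of 491 log2 ratios of single members, 341 stayed within their counting interval or had no such interval, since a group held no UMI. Ratios with no interval could still move far: that of *Saa2* in eWAT_DFAT over eWAT_ASPC went from 8.83 to 5.69. Another 147 moved beyond their interval, and the 3 ratios named above were the reversals of called values. Without endothelial cells and in cells with no cycling marker, both chosen after seeing the data, no count moved beyond 1.5 times. No paired analysis was possible within a depot because each condition has 1 library there, and no library could be left out for the same reason. A fit of DFAT cells against ASPCs with depot as the block, over 2 pairs, was not run, since depot is itself a condition compared here. Depth limits *Orm1* everywhere and *Saa1* and *Saa2* in ASPCs, where at most 2 UMIs were counted.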
